A study of Mus musculus with 16 samples.

Results

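C-type lectin receptors were read from small intestinal RNA of Hnf4aKO mice and Hnf4aWT mice, all irradiated. The members are the probes whose deposited gene symbol starts with Clec and a digit, with Cd209 or with Klr and a letter from a to k, together with Mrc1, Mrc2, Ly75 and Cd207. This gave 96 probes for 62 gene symbols, of 25697 probes for 18138 symbols on the array. The match is by letters, and it also takes in Klraq1, an older symbol of the phosphatase subunit gene Ppp1r21, and Clec16a, a regulator of endosomes and mitophagy, neither of which is a classical lectin receptor.

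The Hnf4aKO group held 8 mice with the VillinCreERT2 transgene, a tamoxifen-activated Cre recombinase under the villin promoter of the intestinal epithelium, and loxP-flanked Hnf4a alleles. The Hnf4aWT group held 8 mice without Cre. The growth protocol gives these mice the loxP-flanked alleles as well, whereas their genotype label reads Hnf4a+/+, a conflict that nothing else in the labels resolves. Mice of both groups received 1 mg tamoxifen by gavage on 5 successive days, then 14 Gy of whole-body gamma irradiation after 3 weeks, and tissue was taken after a further 96 hours. No unirradiated mice were analysed here, and Cre status goes with genotype. The villin promoter is active in epithelium, whereas most C-type lectin receptors are genes of leukocytes, and RNA of the whole tissue does not show which cells carried it.

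C-type lectin receptors carry a fold that in its classical form binds sugars with the help of calcium. On macrophages and dendritic cells, Dectin-1 (Clec7a) and Dectin-2 (Clec4n) recognise fungal and microbial glycans and signal through the kinase Syk and the adaptor Card9, Dectin-2 by way of the Fc receptor gamma chain, while the mannose receptor (Mrc1) and the CD209 family take up glycoproteins and microbes. Many Klr genes, though not all, encode receptors of natural killer (NK) cells, often with protein ligands. Clec2d encodes the ligand of the inhibitory receptor Klrb1b.

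Intensities were background corrected, quantile normalized and expressed as log2. A probe counted as detected on an array when its detection p-value was under 0.05. Of the 62 genes, 25 were detected on none of the 16 arrays, 14 on 1 to 5 arrays and 23 on at least 6 arrays. Those 23 genes, with 28 probes, were tested, and 7 genes were detected on all 16 arrays. For a gene with several probes the brightest was used, and adjusted p-values are from limma's moderated test over all 10143 tested genes with Benjamini-Hochberg adjustment.

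Promoters are shown first, for genes that passed the test and have an entry in the RefSeq promoter table (GRCm38.p6), so that the lectin genes higher in Hnf4aKO and the one that was lower can be read side by side. Each is a window of 300 bases around the gene's start site, written 5′ to 3′ on the gene's own strand. They lie at chr2:14229164-14229463 on the plus strand for Mrc1, chr6:129472730-129473029 on the minus strand for Clec7a, chr6:129180365-129180664 on the plus strand for Clec2d, chr8:3926792-3927091 on the minus strand for Cd209b and chr6:128826266-128826565 on the minus strand for Klrb1b. Capitals mark matches, on either strand, to GAGGAA, the core bound by the myeloid factor PU.1, in Mrc1, Clec7a and Klrb1b, and to GAAANNGAAA, the interferon-stimulated response element, in Clec2d.
Mrc1: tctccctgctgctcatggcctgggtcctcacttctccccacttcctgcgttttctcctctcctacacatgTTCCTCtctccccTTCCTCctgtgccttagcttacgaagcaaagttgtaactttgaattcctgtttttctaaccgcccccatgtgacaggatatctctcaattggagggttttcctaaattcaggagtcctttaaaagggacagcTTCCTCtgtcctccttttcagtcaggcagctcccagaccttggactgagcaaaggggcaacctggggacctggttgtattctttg
Clec7a: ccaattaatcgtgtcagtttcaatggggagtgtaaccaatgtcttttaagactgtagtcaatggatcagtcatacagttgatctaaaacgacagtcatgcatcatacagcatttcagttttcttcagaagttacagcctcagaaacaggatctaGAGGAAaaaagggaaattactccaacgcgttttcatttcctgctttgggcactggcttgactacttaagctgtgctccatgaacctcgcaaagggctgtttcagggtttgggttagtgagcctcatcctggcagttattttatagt
Clec2d: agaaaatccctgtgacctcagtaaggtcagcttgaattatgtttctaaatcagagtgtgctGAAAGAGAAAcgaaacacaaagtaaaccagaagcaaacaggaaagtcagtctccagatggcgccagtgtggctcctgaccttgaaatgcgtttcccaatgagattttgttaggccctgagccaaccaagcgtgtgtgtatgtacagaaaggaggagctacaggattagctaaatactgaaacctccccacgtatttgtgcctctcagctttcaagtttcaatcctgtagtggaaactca
Cd209b: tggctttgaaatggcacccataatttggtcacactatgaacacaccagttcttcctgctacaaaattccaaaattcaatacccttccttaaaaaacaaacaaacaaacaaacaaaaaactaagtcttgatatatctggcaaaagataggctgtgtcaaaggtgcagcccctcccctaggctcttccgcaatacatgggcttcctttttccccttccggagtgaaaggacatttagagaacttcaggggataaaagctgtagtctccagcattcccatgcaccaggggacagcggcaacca
Klrb1b: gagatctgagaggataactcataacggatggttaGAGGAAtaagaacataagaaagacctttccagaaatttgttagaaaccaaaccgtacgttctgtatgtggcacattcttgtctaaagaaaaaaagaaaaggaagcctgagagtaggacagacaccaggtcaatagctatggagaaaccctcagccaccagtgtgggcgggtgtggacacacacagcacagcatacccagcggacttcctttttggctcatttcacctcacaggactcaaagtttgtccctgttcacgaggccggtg
GAGGAA was in 28.3% of the 32851 promoters of the table. Of the 18 tested member genes with an entry, 12 held it in any of their promoters, as did 3 of the 5 called genes. The share over the table counts promoters, whereas the 18 are genes that can have several. For this motif and those below, the shares are therefore not like for like. Mrc1 held GAGGAA 3 times, 180, 167 and 35 bases before its start site, Clec7a held it 96 bases before and Klrb1b 216 bases before. GAAANNGAAA was in 3.44% of all promoters and in 3 of the 18, among them Clec2d, 189 bases before its start. TTCNNNGAA, the gamma interferon activated site, was in 8.3% of all promoters and in 2 of the 18. CAAAGTCC, the core that HNF4 factors bind, was in 1.42% of all promoters and in none of the 18. These matches describe letters in a window and no measured binding.

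Of the 23 tested lectin genes, 6 passed an adjusted p of 0.05: Cd209b, Clec2d, Clec7a, Clec4n and Mrc1 were higher in Hnf4aKO, and Klrb1b was lower. Over all genes tested, 30.7% were called, 13.5% higher and 17.2% lower. The 6 called of 23 are no larger a share than that over all genes, with more of them on the higher side. The other 17 genes did not pass. The median log2 difference of the 23 was 0.34, against -0.02 over all tested genes, and 69.6% of them had a positive difference, against 46.8% of all genes. In 3 genes, Cd209b, Clec2d and Clec7a, no Hnf4aKO array overlapped an Hnf4aWT array, a pattern held by 6.9% of all tested genes. Over the 28 member probes tested singly, 8 were called higher and 1 lower, against 12.4% of all detected probes called higher. The 8 are not separate genes, since 3 of them are probes of Cd209b. The share of all detected probes called lower was not computed.

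**Figure D1:**
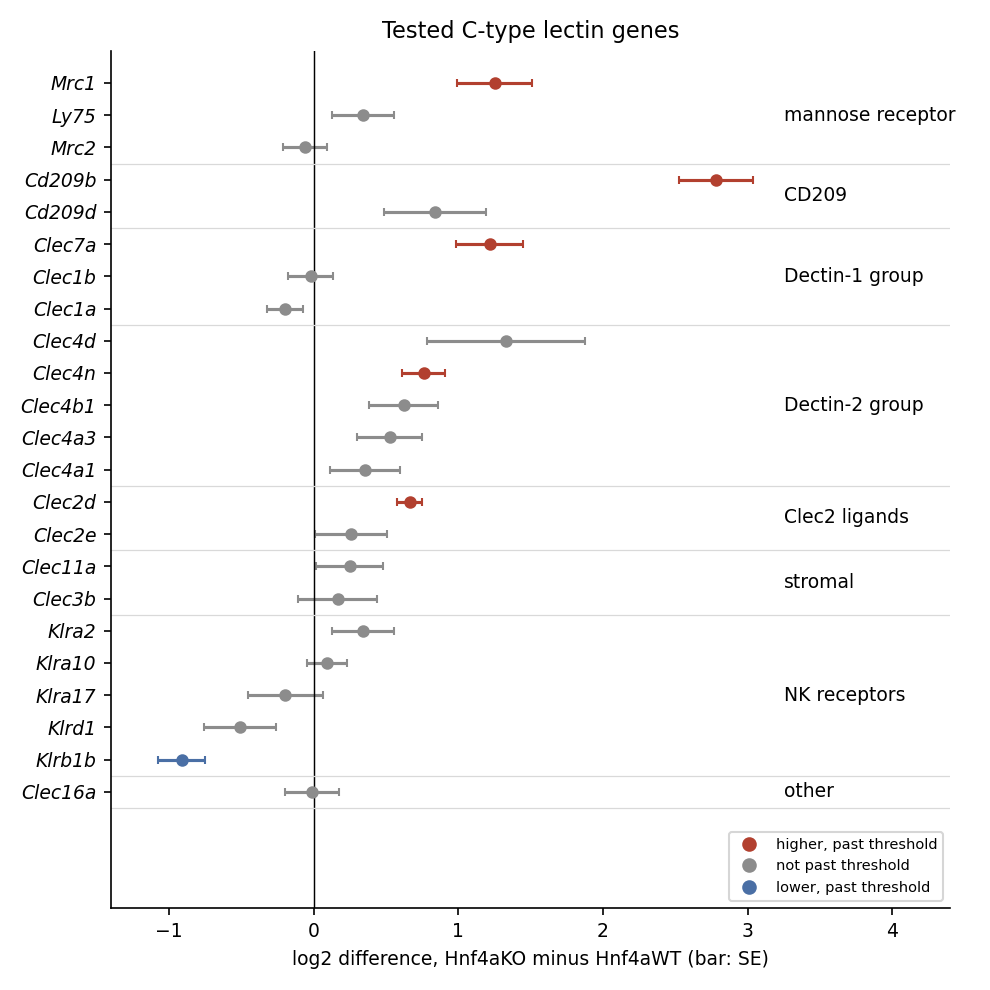
Log2 difference in normalized intensity, Hnf4aKO minus Hnf4aWT, for the 23 tested lectin genes (8 arrays per group, bars show the SE), grouped by role. Cd209b has a fitted difference of 2.78, Klrb1b at -0.91, and the 5 Dectin-2 group genes all lie to the right of 0.

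The targeted gene served as a check of the labels. Hnf4a averaged 10.47 ± 0.19 on the log2 scale in Hnf4aKO and 12.22 ± 0.16 in Hnf4aWT (SD, n = 8 each), a log2 difference of -1.75 (SE 0.096, adjusted p = 2.04e-09). Between 12060 and 13656 probes were detected per array, and the correlation between arrays ranged from 0.906 to 0.988. Member probes were detected in numbers of 18 to 27 per Hnf4aKO array and 20 to 26 per Hnf4aWT array. The labels call the samples mice, and the arrays lay on 2 slides with 4 of each group on each slide.

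Cd209b had the largest difference among the 23 genes. It encodes SIGN-R1, which binds bacterial polysaccharides and dextran on macrophages of the splenic marginal zone and lymph nodes. Its log2 intensity was 8.01 at the lowest, 8.49 at the median and 9.31 at the highest in Hnf4aKO, against 5.12, 5.55 and 6.84 in Hnf4aWT. The lowest Hnf4aKO array was above the highest Hnf4aWT array. The fitted log2 difference was 2.78 (SE 0.26, adjusted p = 9.69e-07) and the exact permutation test gave 0.000155, the smallest p the 12870 splits allow. Since only 3 Hnf4aWT arrays detected the probe, against 8 Hnf4aKO arrays, the fold is given as a bound for this probe and this background correction: Cd209b was at least 5.50-fold higher in Hnf4aKO. The size depends on the correction, as the bounds below do too: the log2 difference was 1.62 without it and 1.73 on the deposited series table, and it passed in both. Taken by slide, it was 2.74 (slide 1) and 2.82 (slide 2). Because whole tissue was measured, more cells of a type and more RNA per cell cannot be told apart, here or in the results that follow.

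The other probes of Cd209b moved the same way. One had a log2 difference of 1.72 (adjusted p = 1.72e-05 in the fit over all 13460 detected probes), with no overlap between the groups, was detected on 8 Hnf4aKO and 4 Hnf4aWT arrays, and was at least 2.91-fold higher in Hnf4aKO. The other had 0.82 (adjusted p = 0.0115), was detected on 6 Hnf4aKO arrays and 1 Hnf4aWT array, and was at least 1.44-fold higher. Its neighbour Cd209d, a related CD209 gene, was detected on 5 Hnf4aKO arrays and 1 Hnf4aWT array, and ran from 5.22 to 8.53 (median 6.27) in Hnf4aKO, against 5.26 to 6.20 (median 5.41) in Hnf4aWT. Hnf4aKO replicate 1 was far above the other arrays, the ranges overlapped, and the log2 difference of 0.84 (SE 0.35, a bound of at least 1.31-fold) did not pass (adjusted p = 0.0826). Clec4g, an endothelial lectin, was detected on 3 arrays, all Hnf4aKO, and Cd209c and Cd209e on 1 Hnf4aKO array each. Cd209a, Clec4f of Kupffer cells and Cd207, the langerin of Langerhans cells, were detected on no array.

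**Figure D2:**
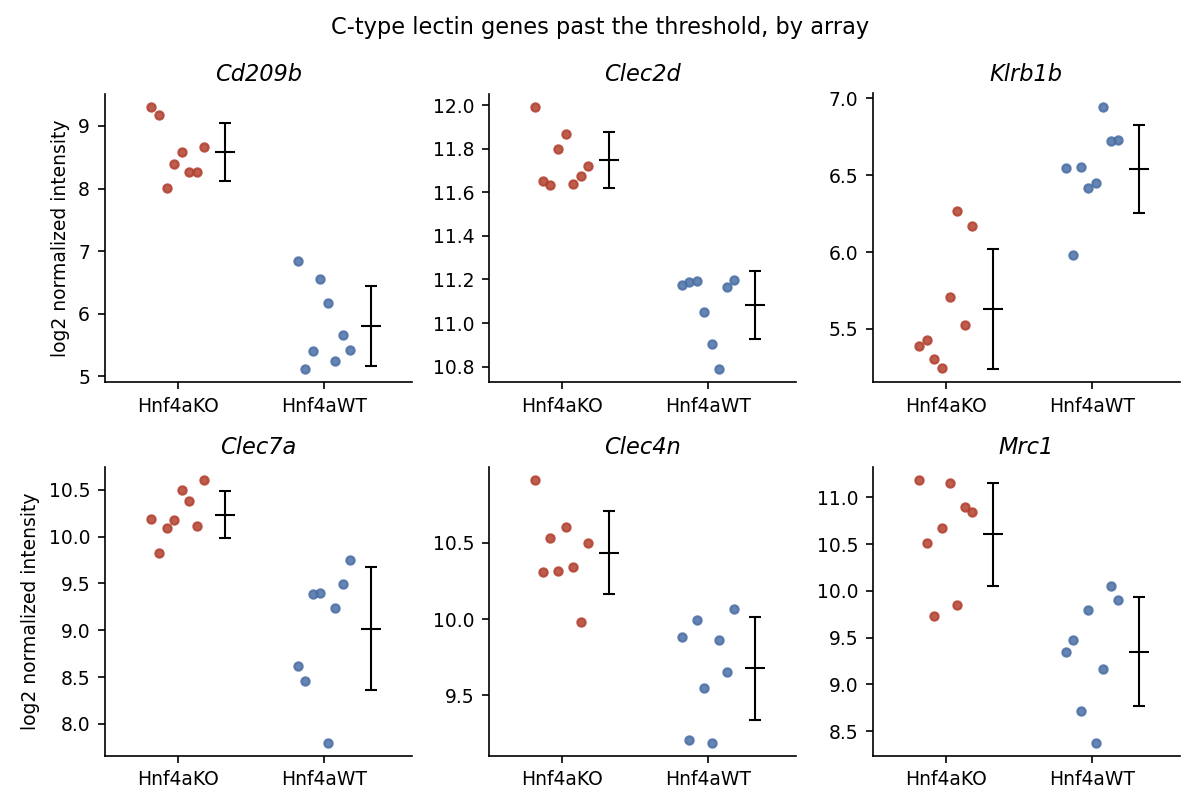
Normalized log2 intensity on each array for the 6 lectin genes that passed the test, Hnf4aKO left (red) and Hnf4aWT right (blue), with the mean and SD of 8 arrays in black. The groups do not overlap in Cd209b, Clec2d and Clec7a, and Klrb1b alone is lower in Hnf4aKO.

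Mrc1, the mannose receptor of tissue macrophages and some endothelia, rose in Hnf4aKO. It ran from 9.73 to 11.18 (median 10.76) in Hnf4aKO, against 8.38 to 10.05 (median 9.41) in Hnf4aWT, a log2 difference of 1.25 (SE 0.26, 2.38-fold, adjusted p = 0.00173). The 2 lowest Hnf4aKO arrays, replicates 3 and 6, lay within the Hnf4aWT range. By slide it was 1.19 (slide 1) and 1.31 (slide 2), and it did not pass when either slide was fitted alone (highest adjusted p 0.0597). Ly75 (DEC-205, an uptake receptor of dendritic cells) was detected on 5 Hnf4aKO arrays and 1 Hnf4aWT array and had a log2 difference of 0.34 (a bound of at least 1.01-fold, adjusted p = 0.241). Mrc2 (Endo180, a collagen uptake receptor of fibroblasts) had -0.06 (adjusted p = 0.8).

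Clec7a, which encodes the beta-glucan receptor Dectin-1, rose as well. Its log2 intensity ran from 9.83 to 10.60 (median 10.18) in Hnf4aKO and from 7.80 to 9.75 (median 9.31) in Hnf4aWT. The 8 Hnf4aKO arrays were packed closely above a wide spread of Hnf4aWT arrays, with no overlap. The log2 difference was 1.22 (SE 0.23, 2.32-fold, adjusted p = 0.00087), with 1.10 on slide 1 and 1.33 on slide 2. A probe deposited under the older symbol Clecsf12, which the RefSeq table places on Clec7a and the symbol rule does not match, had a log2 difference of 1.54 (adjusted p = 0.000329), also without overlap. The related genes did not pass: Clec1a, an endothelial and dendritic cell receptor, had -0.20 (adjusted p = 0.256), and Clec1b, the podoplanin receptor CLEC-2 of platelets, had -0.02 on 3 detecting arrays of each group. Clec9a, the receptor of cross-presenting dendritic cells for exposed actin, was detected on 2 Hnf4aWT arrays, and Clec12a on none.

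Among the Dectin-2 group, Clec4n (Dectin-2) passed the test. It ran from 9.98 to 10.91 (median 10.42) in Hnf4aKO, against 9.19 to 10.07 (median 9.76) in Hnf4aWT, and 1 Hnf4aKO array lay within the Hnf4aWT range. The log2 difference was 0.76 (SE 0.15, 1.70-fold, adjusted p = 0.00109), and it did not pass on slide 2 alone (adjusted p = 0.0673). All 5 tested genes of the group had positive differences, and 4 of them did not pass. Clec4d (the Dectin-3 partner of Mincle) had the widest Hnf4aKO spread of the 23 genes: 5.57 to 10.68 in Hnf4aKO (median 7.90), against 5.59 to 7.41 in Hnf4aWT (median 6.45), and a log2 difference of 1.33 (SE 0.55, adjusted p = 0.074). Hnf4aKO replicate 1 was the highest and replicate 3 the lowest of all arrays for this gene.

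Clec4b1, a dendritic cell lectin, had 0.62 (SE 0.24, adjusted p = 0.0574), while its second probe had 0.71 and passed in the fit over probes (adjusted p = 0.0222). Clec4a3 and Clec4a1, members of the DCIR family of myeloid cells, had 0.53 (adjusted p = 0.0896) and 0.35 (adjusted p = 0.285, detected on 7 Hnf4aKO and 4 Hnf4aWT arrays, a bound of at least 1.18-fold). Clec4e (Mincle), a receptor for mycobacterial glycolipid and for damaged cells, was detected on 1 Hnf4aKO array, and Clec4a2 and Clec4a4 on none. Clec5a, a myeloid receptor that signals through the adaptor Tyrobp, was detected on 1 Hnf4aKO array.

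**Figure D3:**
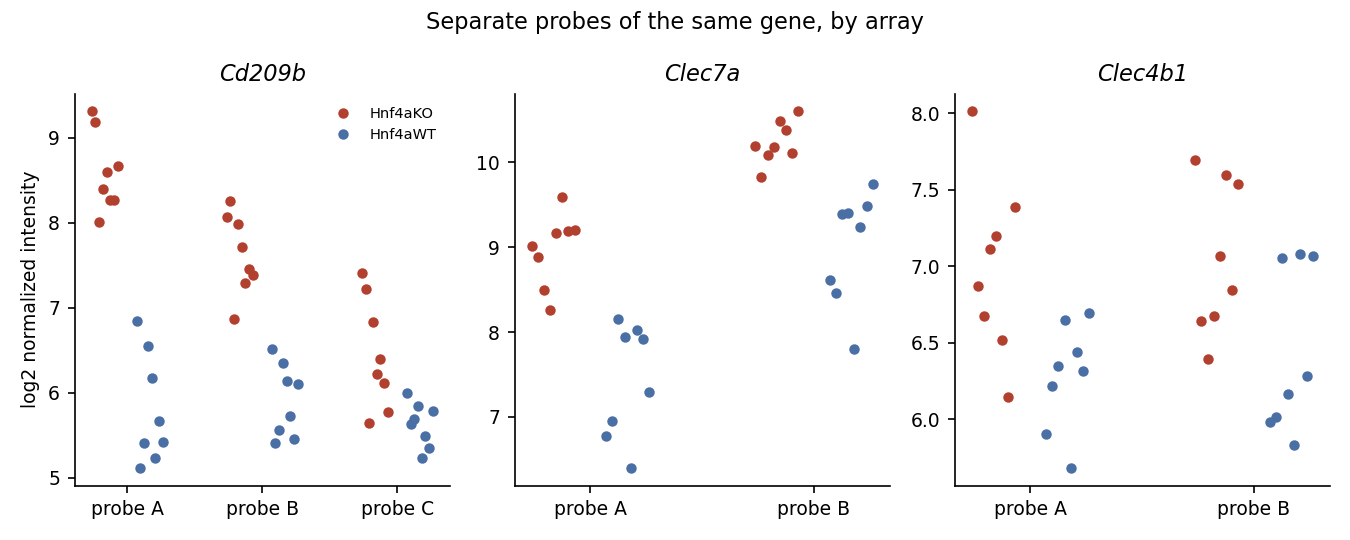
Normalized log2 intensity on each array for separate probes of Cd209b, Clec7a and Clec4b1, Hnf4aKO red and Hnf4aWT blue, probes ordered by their difference (each probe has its own brightness). Probes A and B of Cd209b and both Clec7a probes, of which A is the one deposited as Clecsf12, have no overlap between the groups, and those of Clec4b1 overlap.

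Clec2d and Klrb1b, a ligand and its inhibitory receptor, lay on opposite sides. Clec2d was detected on all arrays and ran from 11.63 to 11.99 (median 11.70) in Hnf4aKO, against 10.79 to 11.20 (median 11.17) in Hnf4aWT. The groups were narrow and did not overlap, and the log2 difference was 0.66 (SE 0.084, 1.58-fold, adjusted p = 2.64e-05), with 0.62 on slide 1 and 0.71 on slide 2. Its relative Clec2e, detected on all arrays, had 0.26 (SE 0.25, adjusted p = 0.458), and Clec2g and Clec2i were detected on no array.

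Klrb1b ran from 5.24 to 6.27 (median 5.48) in Hnf4aKO, against 5.98 to 6.95 (median 6.55) in Hnf4aWT. Only 2 Hnf4aKO arrays reached the Hnf4aWT range, and 2 Hnf4aKO arrays against 8 Hnf4aWT arrays detected the probe. The log2 difference was -0.91 (SE 0.16, adjusted p = 0.000561, exact permutation p = 0.000777, n = 8 each), with -1.03 on slide 1 and -0.79 on slide 2, and with this background correction the bound is at least 1.51-fold lower in Hnf4aKO. The log2 difference was -0.43 without the correction and -0.48 on the deposited series table, and it passed in both. The probe passed the detection filter through the Hnf4aWT arrays, as Cd209b, Cd209d and Ly75 did mainly through the Hnf4aKO arrays, and for such genes the filter itself favours a difference. The Klrb1b result rests on this single dim probe. Its other probes were detected on 4 Hnf4aWT arrays, on 2 Hnf4aWT arrays and on no array, and were not tested.

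Of the 27 Klr genes, 15 were detected on no array, 7 on 1 to 5 arrays and 5 were tested, of which Klrb1b alone was called. Klrd1 (CD94, the partner chain of the NKG2 receptors) ran from 5.83 to 7.57 (median 6.79) in Hnf4aKO, against 6.42 to 7.94 (median 7.50) in Hnf4aWT, and its log2 difference of -0.51 (SE 0.25) did not pass (adjusted p = 0.135). The Ly49 genes Klra2, Klra10 and Klra17 had differences of 0.34, 0.09 and -0.19, none of which passed. Klrk1 (NKG2D), Klrg1, Klrc3 and Klre1 were detected on no array, and Klrb1c (the NK1.1 antigen) on 1 Hnf4aWT array. Outside these groups, Clec11a (a stromal growth factor), Clec3b (tetranectin) and Clec16a did not pass, with 0.25, 0.17 and -0.01, and Clec14a, an endothelial lectin, was detected on no array.

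Most member genes lie close together. Of the 57 symbols that the RefSeq table places, 42 are on chromosome 6 and 7 on chromosome 8. In the NK gene complex, the stretch from Klrb1b to Klra2 holds 12 tested genes, 10 of them members. In their order they read Klrb1b, Clec2e, Clec2d, Cd69, Clec1b, Clec1a, Clec7a, Gabarapl1, Klrd1, Klra17, Klra10 and Klra2. Called and uncalled genes are mixed along it: Clec2d, Cd69, Clec7a and Gabarapl1 (0.61) were higher, Klrb1b was lower, and the other 7 did not pass. In the Clec4 stretch, the 5 tested genes Clec4a1, Clec4a3, Clec4b1, Clec4n and Clec4d sit between Necap1 (-0.20, adjusted p = 0.136) and Cd163 (1.20, adjusted p = 0.132).

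**Figure D4:**
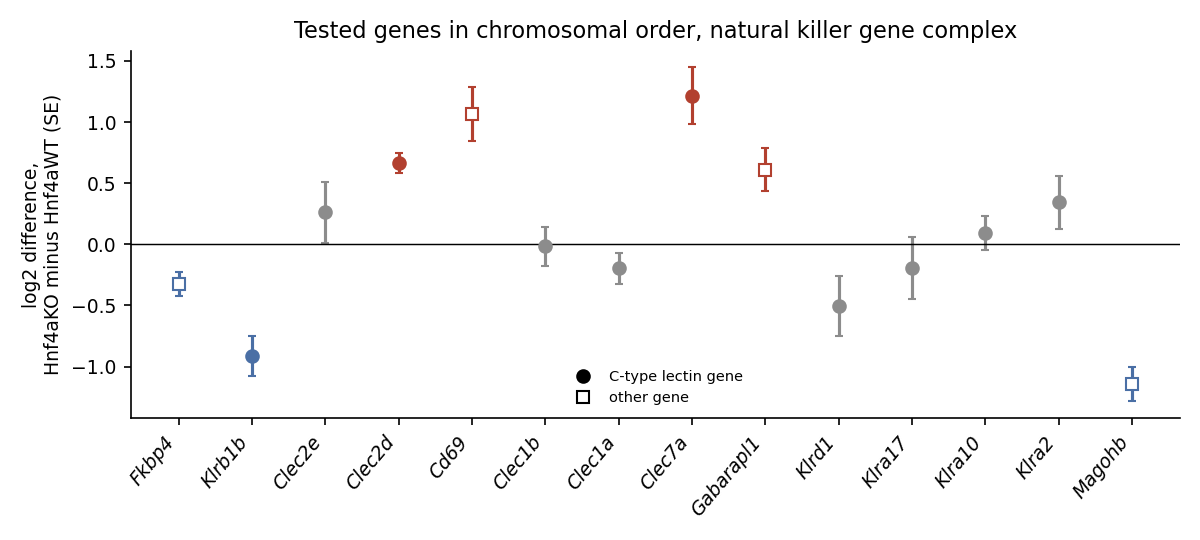
Log2 difference, Hnf4aKO minus Hnf4aWT, with SE for tested genes in chromosomal order through the NK gene complex. Filled circles are members under the symbol rule. Open squares are genes outside the rule, among them Cd69, which is itself a lectin gene. Fkbp4 and Magohb are the tested genes flanking the stretch, and coloured points passed the test (red higher, blue lower).

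Other genes of the pathway were followed from lists. Of 36 signalling partners, 25 were tested, with 10 higher and 1 lower and a median difference of 0.27. The Fc receptor gamma chain gene Fcer1g ran from 11.97 to 12.65 in Hnf4aKO, against 5.16 to 10.85 in Hnf4aWT, where 4 of 8 arrays detected it, and was at least 17.0-fold higher (adjusted p = 0.00131). The Hnf4aWT arrays of this probe were widely spread (SD 2.78) and lay below every Hnf4aKO array. The bound therefore describes the group means, and it does not hold against each Hnf4aWT array. By slide the log2 difference was 3.18 (slide 1) and 5.71 (slide 2). The inflammatory products Tnf and Il1b had 0.95 and 0.84 (adjusted p = 0.00138 and 0.00493), and the Fc receptor gene Fcgr1, detected on 8 Hnf4aKO and 3 Hnf4aWT arrays, was at least 1.67-fold higher (adjusted p = 0.000139). The 1 lower gene was the phospholipase gene Plcg2 at -0.40 (adjusted p = 0.0151), and Syk was detected on no array; both were picked out after their values were seen.

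Of 18 listed ligands, 7 were tested and 3 were higher: H2-T23 (Qa-1, the ligand of CD94 with NKG2A) at 0.99 (adjusted p = 2.10e-05), H2-K1, a ligand of Ly49 receptors, at 0.72 (adjusted p = 0.0101), and Pdpn, the ligand of Clec1b, at 0.55 (adjusted p = 0.00744). Of 36 lectins and scavenger receptors outside the symbol rule, 19 were tested, 7 higher and 1 lower. Siglec1, the sialic acid lectin of macrophages, had 1.52 (adjusted p = 3.07e-05), the activation marker Cd69, detected on 8 Hnf4aKO and 4 Hnf4aWT arrays, was at least 1.93-fold higher (adjusted p = 0.00158), the macrophage galactose lectin Mgl2 had 0.84 (adjusted p = 0.00272), and the epithelial lectin Reg4 had -0.74 (adjusted p = 0.00151).

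Cell type marker genes moved beside these results. Of 15 tested macrophage markers, 10 were higher and none lower, with a median difference of 0.72. Lyz2 had 1.16, Cd68 1.06 and C1qb 0.98. Their mean level was 8.94 to 10.01 over Hnf4aKO arrays, against 8.46 to 8.94 over Hnf4aWT arrays. Macrophage markers moved with Mrc1, Clec7a, Clec4n and Cd209b, and their part in those results was not tested. Of 9 blood endothelial markers 6 were higher, of 7 fibroblast markers 4, of 7 dendritic cell markers 4 with 1 lower, and of 5 neutrophil markers none. Some markers counted as higher passed the detection filter only or mainly through the Hnf4aKO arrays, and for these the filter itself favours a difference. Itgam of the macrophage list, named here for its detection, was detected on 6 Hnf4aKO and 0 Hnf4aWT arrays. Itgax of the dendritic cell list was detected on 8 Hnf4aKO arrays and 1 Hnf4aWT array. For the Klr genes, 4 NK and cytotoxic markers were tested: Xcl1, detected on 8 Hnf4aKO and 3 Hnf4aWT arrays, was at least 2.04-fold higher, and the others were near 0, while Ncr1, Gzmb, Eomes and Tbx21 were detected on no array. The mean level of this list, Xcl1 included, was 7.29 to 7.80 in Hnf4aKO and 7.17 to 7.46 in Hnf4aWT. The median difference of its 4 tested genes was 0.05. Of 6 T cell markers, Cd3e was lower at -0.58, with -0.35 on slide 1 and -0.80 on slide 2. Cd3d and Cd3g, which were not called, had 0.32 and 0.11 on slide 1 and -0.89 and -0.71 on slide 2. The mean level of the T cell list was 6.35 to 7.19 in Hnf4aKO and 6.64 to 7.53 in Hnf4aWT. The part of either list in the Klrb1b result was not tested. Of 5 lymphatic markers 3 were higher, of 3 platelet markers 1 and of 6 epithelial markers 1, and no B cell (2 tested) or smooth muscle marker (5 tested) was called. Epithelial markers averaged 12.86 to 13.23 in Hnf4aKO and 12.87 to 13.15 in Hnf4aWT.

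**Figure D5:**
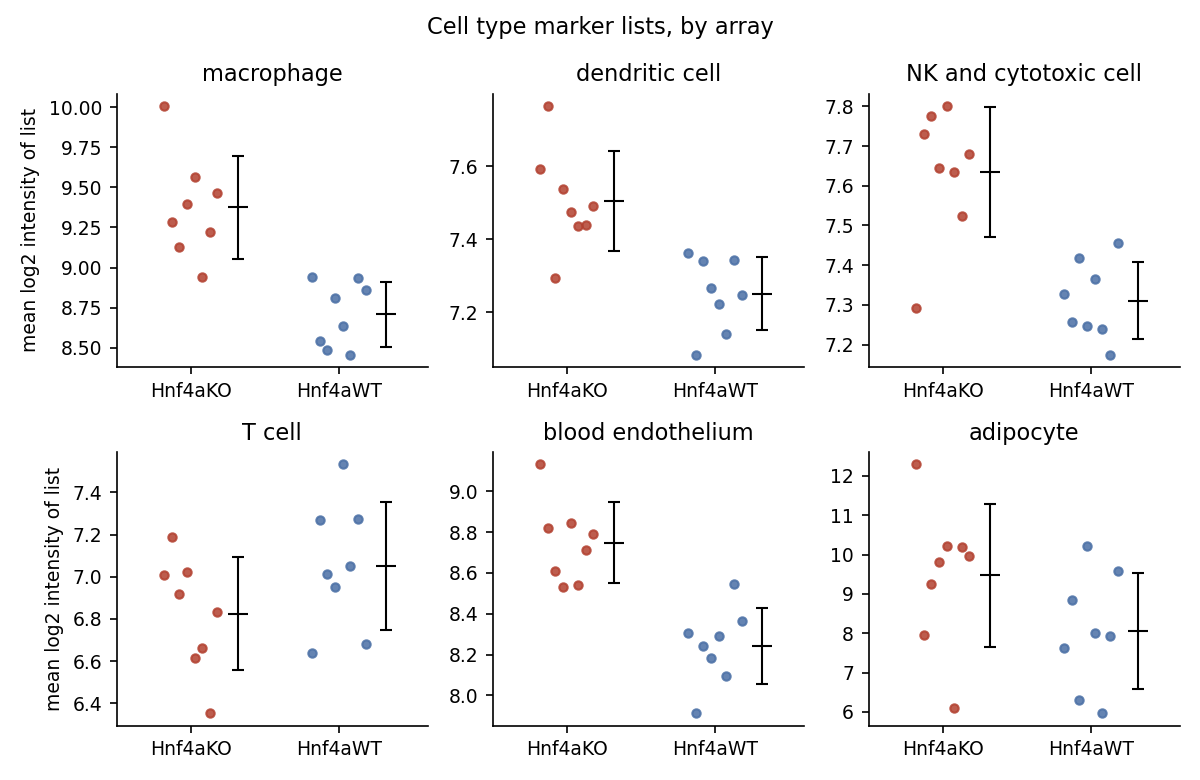
Mean log2 intensity of the tested genes of 6 marker lists on each array, Hnf4aKO left (red) and Hnf4aWT right (blue), with mean and SD of 8 arrays in black. The macrophage list runs from 8.94 to 10.01 in Hnf4aKO and from 8.46 to 8.94 in Hnf4aWT, and the adipocyte list, added after the data were seen, is highest on 1 Hnf4aKO array at 12.29 and lowest of that group at 6.09.

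Adipocyte genes varied widely between arrays: their mean level was 12.29 on Hnf4aKO replicate 1 and 6.09 on replicate 6, against 5.97 to 10.21 over Hnf4aWT. Replicate 1 lay above the Hnf4aWT range and replicate 6 within it. By group the adipocyte level was 9.47 (SD 1.82) in Hnf4aKO and 8.06 (SD 1.47) in Hnf4aWT. The smooth muscle list was 9.49 on Hnf4aKO replicate 6, against 10.97 to 12.57 over Hnf4aWT. The 6 tested adipocyte genes had a median log2 difference of 1.4, with 1 called higher and 0 lower. Their part in the lectin results was not tested. Of the 23 tested lectin genes, 13 were at their highest of all 16 arrays on Hnf4aKO replicate 1, among them Cd209b, Clec2d, Clec4n and Mrc1, as were the macrophage (10.01) and fibroblast (11.23) lists. Without that replicate the same 5 genes were higher and Klrb1b was lower. Hnf4aKO replicate 3 was the lowest Hnf4aKO array for 12 of the 23, and without it 8 genes were higher (Cd209d, Clec4b1 and Clec4d added). With replicates 1 and 6 both left out, a choice made after the data were seen, 6 lectin genes were higher (Cd209d joined the 5) and Klrb1b was lower.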

How the data were processed

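RNA of 16 mice, 8 Hnf4aKO and 8 Hnf4aWT, was measured on Illumina bead arrays. Per the file headers, the deposited intensity of each probe is not normalized, and each intensity has a deposited detection p-value. The deposited series table holds a second intensity per probe; it served as an alternative, its scale is linear and its background treatment and method are not stated. Scanner software and genome build: not given in the sources used here. Per the labels' protocols, TRI Reagent extraction was followed by an RNeasy clean-up and amplification to biotinylated cRNA.

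From the deposited intensity values, log2 levels were computed with limma 3.58.1 in R 4.3.3: normexp correction with control statistics inferred from the detection p-values, an offset of 16, quantile normalization and log2. Differences of dim members came out larger after this correction than on uncorrected intensities. Probes detected (p under 0.05) on at least 6 of 16 arrays were kept, 13460 in all, and the brightest probe per gene was tested, 10143 genes. Symbols were updated through the RefSeq table of GRCm38.p6: 20733 probes held a current symbol, 3903 were updated and 1061 kept the deposited one. Groups were compared with lmFit and eBayes on genotype alone, and single genes also with exact two-sided permutation tests. Bounds, for probes detected on at most 4 arrays of the dimmer group, put every dim array at its lowest detected signal, or at the probe's value where that was higher. The number of arrays limits the precision.

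By the naming rule every member is accounted for, with array values for those past the threshold and for the brightest of the main groups; of each other list up to 4 called genes with the largest change are named. Members, lists and tests were chosen with earlier results of these data known, and the adipocyte list after seeing them. Alternatives covered correction, scaling, filters, probe choice, slide, replicate block, array weights and leaving out each array.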

Additional observations from a re-analysis of the deposited data

Results flagged for a closer look

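In 46 groups of 8 arrays (23 tested genes in each genotype), 3 held a highest array whose gap to the next, as a share of the group's range, passed Dixon's critical value for 8 values. Chance alone flags some groups at this level. Cd209d was 8.53 on Hnf4aKO replicate 1, against 6.76 on the next array (share 0.535). In Hnf4aWT, Cd209d was 6.20 on replicate 8, against 5.67 on the next (share 0.562). Ly75 was 6.68 on Hnf4aWT replicate 3, against 5.79 on the next (share 0.63). Each gene was detected on 6 arrays, so most of these values lie near background. The cause was not tested.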

How the results depend on the processing

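Results were recomputed under 33 other settings, 32 of them planned and 16 of them leaving out 1 array. Cd209b, Clec2d, Clec7a and Klrb1b passed under all 33, and no result reversed. The setting that applied the symbol rule to updated symbols kept the main fit, so it could not change the values of these genes. Sizes of dim genes depended on the background correction: without it the log2 difference was 1.62 for Cd209b, -0.43 for Klrb1b, 0.86 for Clec4d, 0.43 for Cd209d and 0.31 for Clec4b1. Clec4n was lost on slide 2 alone, and Mrc1 on each slide alone, with 4 arrays per group. The count of higher lectin genes was 5, and it was 8 with 75th percentile scaling (Cd209d, Clec4b1 and Clec4d added), 8 with array weights (Cd209d, Clec4a3 and Clec4d added) and between 5 and 8 when single arrays were left out, 8 being without Hnf4aKO replicate 3 (Cd209d, Clec4b1 and Clec4d added). It was 7 without a detection filter and 7 with detection on at least 1 array (Cd209c and Cd209e added in both). Median scaling gave 7 (Clec4b1 and Clec4d added) and the mean of a gene's probes 6 (Clec4b1 added). Slide 1 alone gave 4, and slide 2 alone gave 4 (with Clec4d added). The count of lower genes was 1, and it was 2 without a detection filter, with 59 genes tested (Klra7, detected on no array, added), and 2 with the replicate block (Klrd1 added), which also gave 7 higher (Clec4b1 and Clec4d added). The labels do not say what a replicate number marks. Correlations of same-numbered mice ran from -0.23 to 0.38, 2 of 8 were under 0.1, and 4 of 8 mice correlated best with their own number. The numbers were not used as pairs. Same-numbered mice also shared a slide, so these correlations cannot tell pairing from slide, and some pairing remains possible. The median difference of 0.34 was 0.17 without background correction, 0.18 on the deposited series table, 0.17 with detection on at least 1 array, 0.0301 without a detection filter and between 0.28 and 0.40 when single arrays were left out. For these changes beyond the added genes the cause was not tested. Signal near background limits the Klr genes: 15 were detected on no array and 7 on 1 to 5 arrays, and these were not tested.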
